A study of Mus musculus with 54 samples.

Results

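Selenot, Tlk2, Ino80d, Hmgxb4, Ptov1 and Rhpn2 are 6 mouse genes with binding sites of several KRAB zinc finger proteins (KZFPs) near a transcription start. They were chosen from these same peak lists, as genes whose promoters recurred between KZFPs, so their recurrence is a description and not a finding. A peak was assigned to a gene when its summit, the base with the highest pileup, lay within 2000 bp of any annotated start of that gene (GENCODE annotation of GRCm39). By this rule 33 of the 24975 peaks on the chromosomes belonged to the 6 genes, which are 6 of 21757 protein-coding genes in the annotation.

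The lists come from ChIP-seq in F9, an embryonal carcinoma line of the mouse, with each culture carrying a Sleeping Beauty construct that over-expressed 1 KZFP of the chromosome 4 gene cluster of the BL6J strain with an HA tag. The 42 KZFPs were profiled in 5 batches, of which batches 3 and 4 were the largest (13 and 20 libraries) and the other batches held 3 libraries each. Each KZFP has 1 library, so no value below carries an error between repeat experiments, and over-expression may not match the level of the KZFP in normal cells. Batches 1, 2 and 4 had an empty vector control (4 in all) and batches 3 and 5 had none. All lists had been cleared of peaks that touched a peak of any of these controls. The lists held 21 to 6183 peaks with a median of 125.5, and 10 of them reached down to a fold enrichment over input of 5 while the other 32 stopped at 10. The study used the limit of 5 for samples that kept fewer than 20 peaks at the limit of 10. A gene without a peak in a list is therefore a gene without a peak above the limit of that list, not a gene shown to be unbound.

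KZFPs bind DNA through an array of zinc fingers, in which a few amino acids of each finger contact the bases, and recruit the co-repressor KAP1 through the KRAB domain. Many of them are known for silencing endogenous retroviruses, and they can also be found at CpG-rich promoters of active genes. The 6 genes have different roles. Selenot encodes a selenoprotein of the endoplasmic reticulum, Tlk2 a Tousled-like kinase that phosphorylates the histone chaperone ASF1, and Ino80d a subunit of the INO80 chromatin remodelling complex. Hmgxb4 encodes an HMG-box protein linked to chromatin remodelling, Ptov1 a protein with a domain that is also found in the Mediator subunit MED25, and Rhpn2 a rhophilin, a protein that binds small GTPases.

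The sequences that carry the coincident summits show what the KZFPs met at these sites. They were read from GRCm39 on the strand of the gene, as 300 bases around the median summit, or 30 bases where more than 30 of these were annotated as untranslated in any transcript. Capitals mark matches, on either strand, to 8 short promoter motifs that were searched: the GC box GGGCGG, the CCAAT box, the ETS site CCGGAAG, the TATA box TATAAA, the E-box CACGTG, the CRE site TGACGTCA, a YY1 site AAGATGGCG and the BANP site TCTCGCGA.
Selenot (chr3:58484188-58484487, plus strand, all 8 summits): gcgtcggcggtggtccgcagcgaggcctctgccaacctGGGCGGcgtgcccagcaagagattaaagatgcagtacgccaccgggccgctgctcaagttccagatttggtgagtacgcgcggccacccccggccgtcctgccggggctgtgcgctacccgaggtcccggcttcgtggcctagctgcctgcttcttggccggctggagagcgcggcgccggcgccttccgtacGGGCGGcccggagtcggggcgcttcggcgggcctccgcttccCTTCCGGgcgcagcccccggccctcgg
Hmgxb4 (chr8:75720375-75720674, plus strand, 7 of the 8 summits): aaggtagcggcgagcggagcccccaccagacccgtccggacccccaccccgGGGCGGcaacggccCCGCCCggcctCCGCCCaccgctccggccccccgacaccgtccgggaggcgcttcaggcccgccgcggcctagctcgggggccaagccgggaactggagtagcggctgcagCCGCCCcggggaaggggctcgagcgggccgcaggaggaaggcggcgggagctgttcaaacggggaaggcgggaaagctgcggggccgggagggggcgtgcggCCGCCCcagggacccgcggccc
Rhpn2 (chr7:35032646-35032945, plus strand, both summits): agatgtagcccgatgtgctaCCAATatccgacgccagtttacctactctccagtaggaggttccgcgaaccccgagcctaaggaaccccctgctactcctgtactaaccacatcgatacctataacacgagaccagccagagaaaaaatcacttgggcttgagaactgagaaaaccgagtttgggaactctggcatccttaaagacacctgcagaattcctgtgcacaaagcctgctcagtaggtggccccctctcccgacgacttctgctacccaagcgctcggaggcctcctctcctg
Tlk2 (chr11:105072664-105072693, plus strand, 4 of the 7 summits): cgagctcggggatctgcggcctccgtggcc
Ino80d (chr1:63153421-63153450, minus strand, 4 of the 5 summits): aggcaGGGCGGGCGGcgagcgcgcttacgt
Ptov1 (chr7:44512843-44512872, minus strand, 2 of the 3 summits): gcagatgggtggctagaggatgcctgggct
The Selenot, Hmgxb4 and Ino80d sequences are rich in G and C and hold GC boxes, while the Rhpn2 sequence is mixed in composition.

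Of the 42 lists, 13 had a peak at 1 or more of the 6 genes. Zfp_MB035 had one at 5 of them, all but Ptov1. Zfp_MB025, Zfp980 and Zfp_MB011 each had peaks at the same 4 genes, Selenot, Tlk2, Ino80d and Hmgxb4. Zfp982 also reached 4 genes, with Ptov1 in place of Selenot. Zfp_MB018 had peaks at 3 genes (Selenot, Tlk2 and Hmgxb4), Zfp600 at 2 (Selenot and Tlk2) and Zfp_MB016 at 2 (Selenot and Hmgxb4). The other 5 lists had 1 peak each, namely Zfp_MB022 at Selenot, Zfp_MB037 at Hmgxb4, Zfp_MB001 and Zfp988 at Ptov1 and Zfp6002 at Rhpn2.

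**Figure D1:**
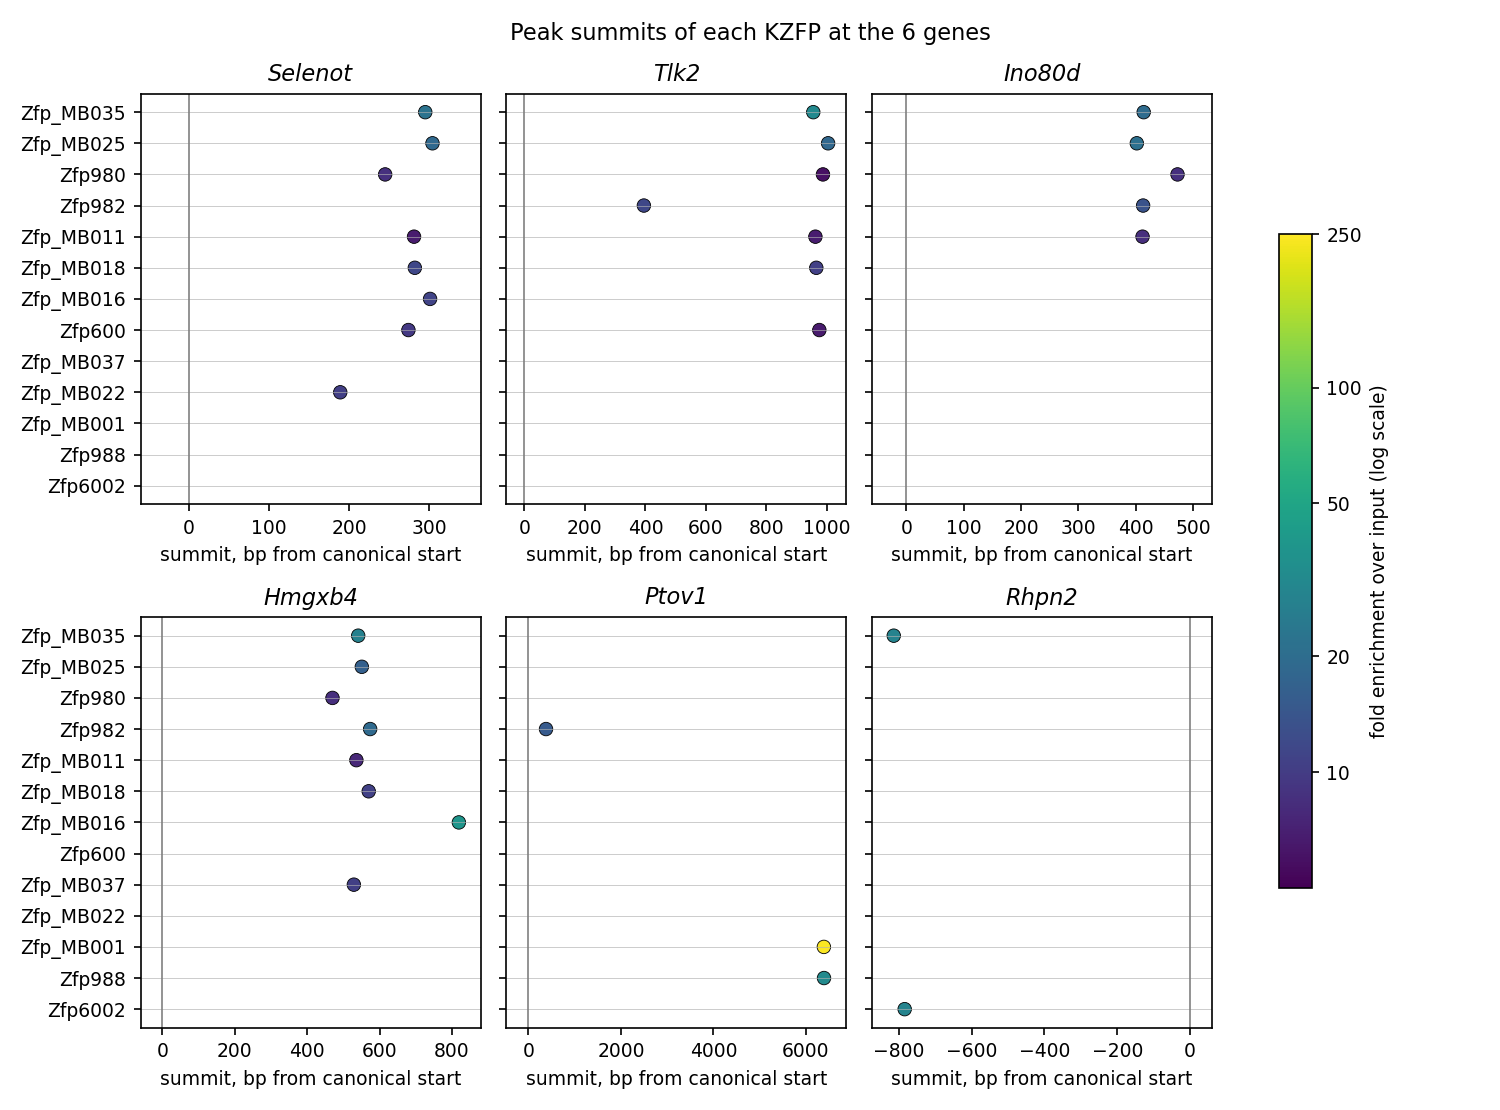
Position of each peak summit at the 6 genes. The x axis is the distance in bp from the canonical transcription start (grey line), positive into the gene, with a scale of its own in each panel; the y axis lists the 13 KZFPs and the colour is the fold enrichment over input on a log scale. The summits at Selenot, Ino80d and Hmgxb4 form 1 column apart from Zfp_MB016 at Hmgxb4, those at Tlk2 form 1 column apart from Zfp982, and those at Ptov1 lie at both ends of the gene.

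Over all protein-coding genes, 22.9% had a summit near a start in at least 1 list, 4.67% in at least 2, 0.924% in at least 3 lists and 0.12% (26 genes) in at least 5. Selenot and Hmgxb4, with 8 lists each, were among the 3 genes with that number, and 4 genes had more. Tlk2 had 7 lists, with 7 genes above it, and Ino80d had 5, with 15 genes above it. Ptov1, with 3 lists, shared that number with 147 other genes (148 in all), and Rhpn2, with 2 lists, was 1 of 815. The gene with most lists was Polrmt (13), which encodes the mitochondrial RNA polymerase.

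**Figure D2:**
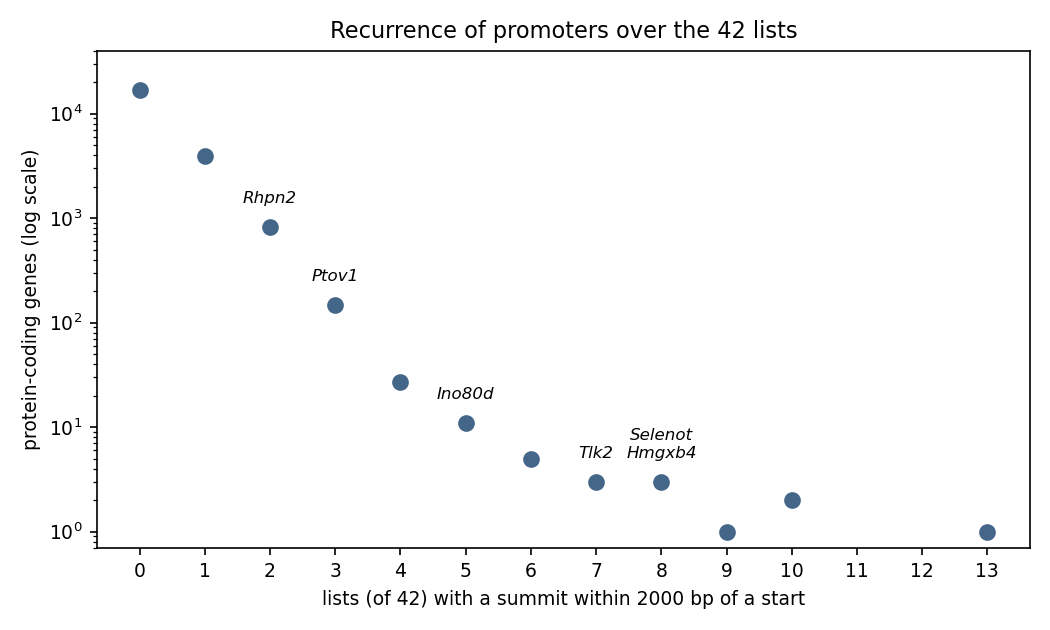
Number of protein-coding genes (y axis, log scale) by the number of the 42 lists with a summit within 2000 bp of a start (x axis). Each point is a count of genes, and counts of 0 at 11 and 12 lists are not drawn. Selenot and Hmgxb4 lie at 8 lists, where there are 3 genes, and Rhpn2 at 2 lists, where there are 815.

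At Selenot (ENSMUSG00000075700.12, chromosome 3, plus strand, canonical start 58484057) all 8 summits fell within 115 bp. Of these, 7 lay in the first intron, 8 to 67 bp past the end of exon 1 at 58484294, and that of Zfp_MB022 lay in the coding part of exon 1, 48 bp before it. The highest fold enrichments were 22.2 for Zfp_MB035 (summit 58484352) and 18.7 for Zfp_MB025 (58484361). Zfp_MB018 had 11.6, Zfp_MB016 11.0, Zfp_MB022 10.4, Zfp600 9.60, Zfp980 8.63 and Zfp_MB011 6.74. These folds are not on 1 scale, since each list has the input of its own batch, and the place of a peak within its own list gives another order. Zfp600 had its Selenot peak 6th of 51, Zfp_MB025 8th of 56 and Zfp980 15th of 114, whereas Zfp_MB022 had it at rank 337 of 365 and Zfp_MB016 at 5559 of 6183. A long non-coding RNA on the other strand, Gm56813, has a start 20 to 135 bp from these summits, and ChIP peaks cannot tell the 2 starts apart.

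Tlk2 (ENSMUSG00000020694.19, chromosome 11, plus strand, canonical start 105071709) carried 6 summits within 49 bp, from 105072664 for Zfp_MB035 to 105072713 for Zfp_MB025. They lay 955 to 1004 bp into the canonical transcript, in its untranslated first exon, and 42 to 91 bp past a start of a shorter transcript. The fold enrichment was 31.4 for Zfp_MB035, 18.5 for Zfp_MB025, 10.5 for Zfp_MB018, 6.83 for Zfp_MB011, 6.63 for Zfp600 and 5.98 for Zfp980. Zfp982 stood apart, with a summit at 105072104, 560 to 609 bp from the other 6, and a fold enrichment of 11.6. Zfp_MB025 ranked the gene 9th of 56, Zfp_MB035 69th of 459 and Zfp_MB011 55th of 296. In the lists of Zfp_MB018 (147 of 171) and Zfp982 (3801 of 4746) it stood near the end. The antisense gene 1700052K11Rik starts 66 to 454 bp from the summits.

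At Ino80d (ENSMUSG00000040865.17, chromosome 1, minus strand, canonical start 63153849) the 5 summits fell within 71 bp, and 4 of them within 12 bp, from 63153435 to 63153447. All 5 were in the first intron of the canonical transcript, 73 to 144 bp past exon 1, where other transcripts of the gene have an exon. Zfp_MB025 had a fold enrichment of 20.8 and its 4th highest peak of 56 there. Zfp_MB035 had 19.8 (124 of 459), Zfp982 13.6 (3067 of 4746), Zfp980 8.69 (14 of 114) and Zfp_MB011 8.46 (26 of 296). For Zfp_MB011 and Zfp_MB025 this was their highest rank at any of the 6 genes. Ino80dos, a long non-coding RNA on the other strand, has a start 131 to 202 bp away.

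Hmgxb4 (ENSMUSG00000034518.16, chromosome 8, plus strand, canonical start 75719984) had 7 summits within 104 bp, from 75720454 for Zfp980 to 75720558 for Zfp982. They lay in the first intron, 77 to 181 bp past the end of exon 1. The 8th, of Zfp_MB016, was at 75720803, 426 bp past exon 1, and had the highest fold enrichment of the 8, 38.8 (rank 760 of 6183). The other folds were 27.4 for Zfp_MB035, 19.0 for Zfp982, 16.4 for Zfp_MB025, 10.7 for Zfp_MB018, 10.3 for Zfp_MB037, 8.55 for Zfp980 and 7.80 for Zfp_MB011. Zfp980 ranked it 16th of 114 and Zfp_MB011 36th of 296. The rank was 44 of 54 for Zfp_MB037, with 13 of its 54 summits at promoters. The 300 bases around the 7 summits and those around the summit of Zfp_MB016 overlap by 22 bases.

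Ptov1 differed from these 4 genes, since its 3 peaks were at 2 places about 6 kb apart. Zfp_MB001 (summit 44512860) and Zfp988 (44512857) lay 3 bp apart in exon 12, the last exon of the gene (ENSMUSG00000038502.19, chromosome 7, minus strand, canonical start 44519249), at the border of the coding and the 3′ untranslated part. They came within 2000 bp of a start only through a short transcript that begins 537 to 540 bp upstream of them. The Zfp_MB001 peak had a fold enrichment of 244 and was the 2nd highest of its 1153 peaks, the only peak at the 6 genes in the top 5 of a list apart from that of Zfp_MB025 at Ino80d. Zfp988 had 32.1 and rank 28 of 182. The peak of Zfp982 was at the other end of the gene, in exon 1 and 379 bp from the canonical start, with a fold enrichment of 15.3 and rank 2568 of 4746.

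Rhpn2 (ENSMUSG00000030494.16, chromosome 7, plus strand, canonical start 35033595) had 2 peaks upstream of the gene, outside any of its exons. The summits of Zfp_MB035 (35032781) and Zfp6002 (35032811) were 30 bp apart and 814 and 784 bp before the start. The fold enrichments, 28.8 and 29.4, and the ranks, 74 of 459 and 18 of 114, placed the peak in the upper 16.1% and 15.8% of the lists.

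The rule's limit of 2000 bp affected few peaks. The member summit farthest from its nearest start was 814 bp away, and the nearest summits outside the limit were those of Zfp_MB026 and Zfp_MB014 inside Hmgxb4, 2429 and 2487 bp from a start, with fold enrichments of 19.2 and 35.1. At Tlk2, Ino80d, Ptov1, Rhpn2 and Selenot no other summit was closer than 5746 bp.

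Summits of different KZFPs coincided at all 6 genes. Of the 91 pairs of KZFPs at the same gene, 72 had summits at most 100 bp apart. The median distance was 28 bp at Selenot (28 pairs), 29 bp at Tlk2 (21 pairs), 11.5 bp at Ino80d (10 pairs) and 43 bp at Hmgxb4 (28 pairs). At Ptov1 only the pair of Zfp_MB001 and Zfp988 coincided, and at Rhpn2 the single pair did. The pairs at a gene share libraries and are not independent of each other. The members were chosen because several KZFPs have peaks there, but the rule did not ask that the summits coincide. The share of coincident pairs at other promoters with peaks in several lists was not computed. Coincidence is therefore not shown to be particular to the 6 genes, and it was also seen outside them, at Ccny and Cdc42bpa.

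Within the lists the peaks at the 6 genes were mostly high but seldom at the top. Of the 33, 20 stood in the top 25% of their list by fold enrichment and 6 ranked below 75% of it, with a median at 18.6% of the list. In the lists that stopped at a fold of 10, 12 of 23 peaks stood in the top 25%. The other peaks came from Zfp_MB011, Zfp980 and Zfp600, whose lists reached down to a fold of 5. Their highest folds at the 6 genes were 8.46, 8.69 and 9.60, so a high rank there is a place among weaker peaks. All 4 peaks of Zfp_MB011 and of Zfp_MB025 and 4 of the 5 of Zfp_MB035 were in the top 25%, as were 3 of the 4 of Zfp980. None of the 4 of Zfp982 and none of the 3 of Zfp_MB018 was. The rule did not use the rank. Among promoter peaks alone, Ino80d was 3rd of 46 for Zfp_MB025 and 3rd of 27 for Zfp980, Selenot was 2nd of 28 for Zfp600 and Ptov1 was 2nd of 398 for Zfp_MB001.

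**Figure D3:**
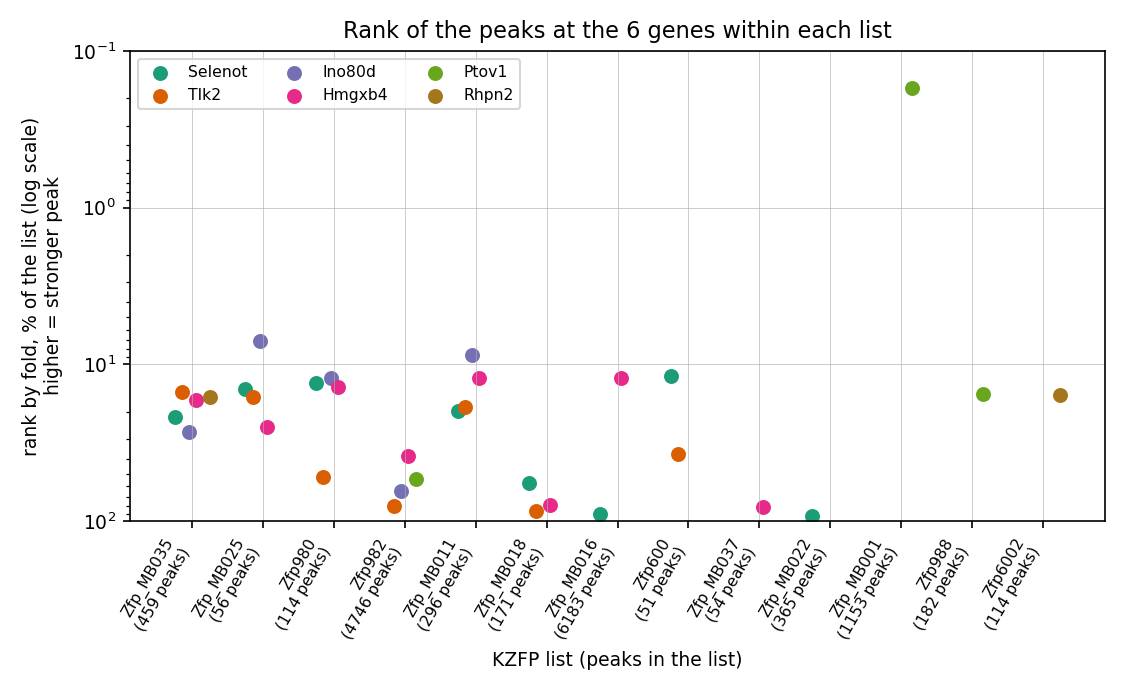
Rank by fold enrichment of each peak at the 6 genes as a percentage of its list (y axis, log scale, the strongest peaks at the top) for the 13 lists (x axis, with the number of peaks). Each point is 1 peak, coloured by gene. The peaks of Zfp_MB035, Zfp_MB025 and Zfp_MB011 lie between 7.14% and 27.0%, that of Zfp_MB001 at Ptov1 at 0.173%, and those of Zfp_MB018 between 56.7% and 86.0%.

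The KZFPs that recurred at Selenot and Tlk2 shared parts of their finger arrays. A KZFP's fingerprint array was compared as a row of fingers, and a run is a number of consecutive fingers with the same contact residues. Among the 6 KZFPs that had peaks at both Selenot and Tlk2 (Zfp600, Zfp980, Zfp_MB011, Zfp_MB018, Zfp_MB025 and Zfp_MB035), 14 of 15 pairs shared a run of 3 or more fingers, and the longest was 7. Longer runs reached outside the 6, such as 11 fingers between Zfp600 and Rex2. The share of such pairs among all profiled KZFPs was not computed, so whether these runs set the 6 apart was not tested. Zfp982, Zfp_MB016, Zfp_MB022 and Zfp_MB037 shared no run longer than 1 finger with any other KZFP that had a peak at the 6 genes. At Rhpn2, Zfp_MB035 and Zfp6002 shared a run of 17 fingers out of 18 and 22, and at Ptov1, Zfp_MB001 and Zfp988 shared 7 out of 18 and 14. Not every KZFP with such a run had a peak here. Of the KZFPs with a run of 3 or more in common with one of the 6, 7 others were profiled, and 6 of them had no peak at any of the 6 genes (Rex2, Zfp6001, Zfp6003, Zfp978, Zfp_MB003 and Zfp_MB014), while Zfp6002 had that at Rhpn2.

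Even KZFPs with an identical array differed at these genes. Zfp6001 (103 peaks) and Zfp6003 (75 peaks) have the array of Zfp_MB035 (459 peaks), and neither had a peak at the 6 genes, against 5 genes for Zfp_MB035. Both were made in batch 2 and Zfp_MB035 in batch 5, so the library cannot be told apart from the batch. Zfp_MB003 has the array of Zfp_MB011 and comes from the same batch 3. Its list was larger, 360 against 296 peaks, and 81.1% of its summits were at promoters against 44.6%, yet it had no peak at the 6 genes where Zfp_MB011 had 4. The study reports fewer reads for Zfp_MB003 than for Zfp_MB011, and fewer for Zfp6001 and Zfp6003 than for Zfp_MB035. The part of read depth in these differences was not tested. Of the 91 other protein-coding genes with a Zfp_MB011 promoter peak, 25 also had one of Zfp_MB003, which is 27.5% of the first list and 8.25% of the 303 genes of the second.

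Beyond the 6 genes, the recurrent KZFPs shared other promoters as well. With the 6 genes left out, 15 protein-coding genes had a promoter peak of Zfp980, and 10 of them (66.7%) also had one of Zfp_MB035, which is 11.2% of the 89 of the latter. Of the 14 of Zfp600, 9 (64.3%) were shared with Zfp_MB025 and 9 with Zfp_MB011, or 20.9% and 9.89% of the latter lists. Zfp_MB025 shared 19 of its 43 genes with Zfp_MB011 (44.2%), and these are 20.9% of those of Zfp_MB011. Of the 38 of Zfp988, 25 (65.8%) were shared with Zfp_MB001, which are 8.83% of the 283 of Zfp_MB001. Other pairs shared less, such as 3 of the 14 of Zfp600 with Zfp980 (21.4%). Of the 30 of Zfp_MB018, 9 (30.0%) were shared with Zfp_MB011. With Zfp982, whose array shares no longer run and which had 2668 such genes, it was 11 (36.7%). The background of each share is the number of genes of the other list among the 21757 protein-coding genes. Apart from the 6 genes, that number was 89 for Zfp_MB035, 91 for Zfp_MB011 and 2668 for Zfp982. The shares with Zfp_MB011 and with Zfp982 are therefore not alike, since the latter has a much larger background. Over all protein-coding genes, 4.67% had a summit near a start in at least 2 lists, but that counts any 2 of the 42.

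Promoters made up very different shares of the lists. In Zfp_MB025, 83.6% of the 55 summits on chromosomes were within 2000 bp of a start, the highest share of the 42 lists, which ran from 7.45% to 83.6% with a median of 24.0%. The share was 61.5% in Zfp982, 54.9% in Zfp600, 44.6% in Zfp_MB011 and 41.8% in Zfp_MB018. In Zfp_MB035 it was 27.2% and in Zfp980 23.9%, close to the median, although they had peaks at 5 and 4 of the genes. The number of the 6 genes per list is given for batches without and with an empty vector control as a description, since the rule used these peaks. The 16 lists of batches 3 and 5 had 0.688 ± 1.54 (SD) of the genes and the 26 lists of the other batches 0.846 ± 1.41 (SD), with 1 or more genes in 4 of 16 and 9 of 26 lists. The share of summits at all other promoters, without the peaks at the 6 genes, was 29.1% ± 18.5 (SD) in the 16 lists and 26.5% ± 18.3 (SD) in the 26. The difference of 2.60 percentage points did not pass a two-sided permutation test over libraries (adjusted p = 0.843 after Benjamini-Hochberg adjustment over 2 tests, the other being on the genes per list). A control belongs to a whole batch, 2 without and 3 with, so its presence cannot be told apart from the batch and the p-value measures only the spread between libraries.

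**Figure D4:**
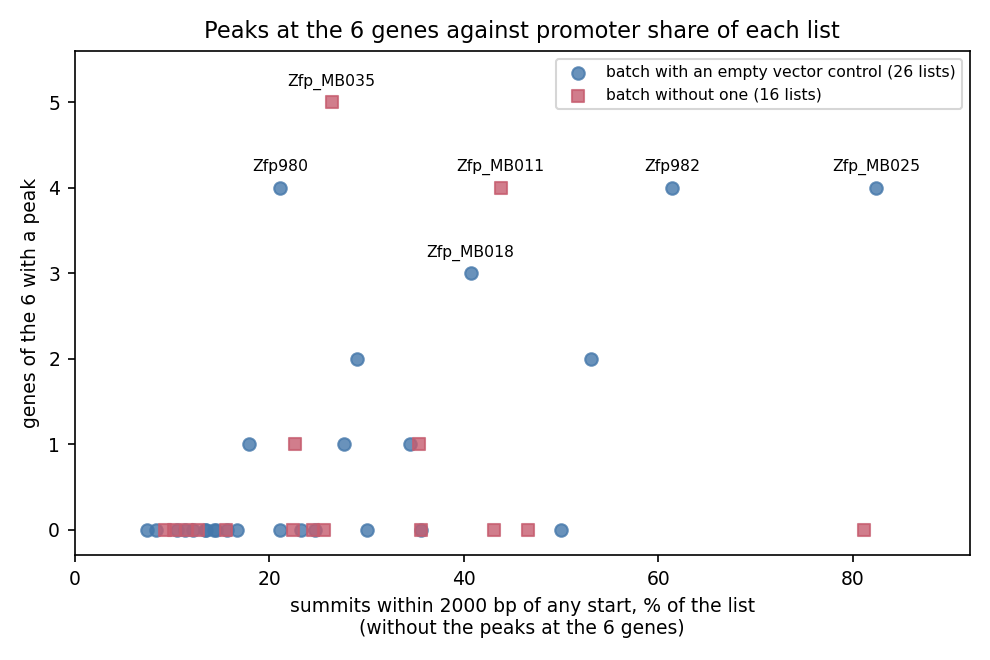
Number of the 6 genes with a peak (y axis) against the percentage of a list's summits within 2000 bp of any start, without the peaks at the 6 genes (x axis), for the 42 lists. Circles are the 26 lists of batches with an empty vector control and squares the 16 lists of batches without one. Zfp_MB035 lies highest, with 5 genes, at a promoter share of 26.4%, and Zfp_MB003, at 81.1%, has none.

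The sites of the 4 most recurrent genes were rich in G and C. In the 300 bases around the median summit, G and C made up 73.3% at Selenot, 82.3% at the common Tlk2 site, 69.0% at Ino80d and 79.3% at Hmgxb4. The median was 54.3% in the promoters of all 21757 protein-coding genes (250 bases before to 50 after the canonical start) and 50.0% in the windows of all 24975 summits. Of all promoters, 96.2%, 99.8%, 91.1% and 99.4% had a lower value than these 4 windows. The observed over expected CpG ratio ran from 0.812 to 0.975 in the 4 windows, against a median of 0.517 over the promoters. The window at the last exon of Ptov1 (66.0%, CpG ratio 0.306) and the one upstream of Rhpn2 (53.7%, 0.628) were less extreme. Tlk2 at the Zfp982 summit (77.3%) and Ptov1 at its own (79.7%) were as rich as the 4.

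The GC box GGGCGG was present 2 times at Selenot, 5 times at Tlk2, 4 times at Ino80d and 5 times at Hmgxb4, counting overlaps, and not at Rhpn2. At least 1 copy was found in 42.5% of all promoters and in 22.1% of all summit windows. The ETS site was found 1 time, at Selenot, and in 10.3% of all promoters. TATA, E-box, CRE, YY1 and BANP letters were in none of the summit windows at the 6 genes. They were in 12.9%, 7.06%, 4.4%, 11.3% and 0.372% of all summit windows and in 13.2%, 7.82%, 2.45%, 1.34% and 1.23% of the promoters. The promoter windows lie at the canonical start and not at a summit. In those of the 6 genes, TATA letters were found at Selenot and Hmgxb4 and an E-box at Hmgxb4. The GC box was there 1 time at Tlk2 and 4 times at Rhpn2, and not at Selenot, Ino80d, Hmgxb4 or Ptov1. These are letter matches, and a lack of them says nothing of the factors.

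None of the peaks at these genes that could be searched held a full match to the motif of its KZFP. The motifs, letters from the study's supplement that were derived from the same lists, exist for 11 of the 13 KZFPs, and the 300 bases around the summit were searched on both strands without mismatch in 27 windows. In the whole lists the motif was present in 68.5% of the windows for Zfp_MB037, 66.3% for Zfp_MB022 and 39.5% for Zfp_MB016. The share was 22.1% for Zfp6002, 20.8% for Zfp982, 17.8% for Zfp_MB035, 17.7% for Zfp980 and 9.86% for Zfp_MB011. It was rarer for Zfp988 (3.85%), Zfp_MB018 (2.94%) and Zfp_MB001 (2.34%). Nor did partial matches stand out. The best ungapped match of the Zfp_MB035 motif had 10 of 15 positions at Rhpn2 and at Ino80d, which 63.0% of all promoters equalled or exceeded, and 8 of 15 at Tlk2, which all promoters did. The match closest to its motif was that of Zfp980 at Selenot, with 12 of 15 positions, a value reached in 23.1% of promoters.

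The common Tlk2 site has relatives on chromosome 4. Searched after the values were seen, the 2000 bases around each site with simple repeats masked gave alignments across the median summit, at 80% identity or more over at least 100 bp, for this site and for no other. Without masking, 105 bp of the Selenot window (58484188 to 58484292) also aligned, at 91.4% identity, to 19629986 to 19630090 on chromosome 8, a stretch of exon 1 that holds the summit of Zfp_MB022 but not the other 7, and the chromosome 8 copy had no peak. Those of Tlk2 were 6 stretches of 449 to 469 aligned bp between 145500848 and 147527922 that matched the first exon of Tlk2 at 88.7% to 93.6% identity, in a part of chromosome 4 that holds KZFP genes. All 6 alignments ended at 105072877 of Tlk2, the last base of that exon, and 5 of them began at 105072425. Of the 6, 1 overlaps Zfp991, a KZFP gene whose start is 43 bp from its centre, and 4 overlap long non-coding RNAs with starts within 129 bp of the centre, such as Gm13166 and Gm13236. Sequences at the Tlk2 summits and in 2 of the copies that carry peaks show how close they are, with the bases that differ from Tlk2 in capitals.
Tlk2 (chr11:105072664-105072693): cgagctcggggatctgcggcctccgtggcc
Copy near Gm13166 (chr4:146199987-146200016): cgagctcggggatctgTggcctccgtggcc
Copy 40443 bp from the nearest start, of Zfp992 (chr4:146493046-146493075): cgagctcggggatctgTggcctccgtAgTc

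Of the 6 copies, 5 carried a peak, 10 in all, of 4 KZFPs. Zfp982 had 4 of them, with fold enrichments from 11.3 to 41.0, Zfp_MB035 had 3 (10.3, 10.4 and 11.2), Zfp_MB020 had 2 and Zfp_MB011 had 1 (5.01). In the copy near Gm13166, the summits of Zfp_MB011 (146199990) and Zfp_MB035 (146199981) aligned 4 and 6 bp before the summits of the same KZFPs at Tlk2. In the other 2 copies with a Zfp_MB035 peak the shift was 44 and 57 bp. Zfp982, whose Tlk2 summit lay elsewhere, had its summits in the copies 496 to 685 bp farther into the sequence. The Zfp_MB035 peaks were weaker in the copies (ranks 371 to 431 of 459) than at Tlk2 (rank 69). Zfp_MB020 had no peak at Tlk2. The peaks of the copies were not used by the rule. The authors' aligner kept 1 of several equally good positions for a read, and the part of reads moving between Tlk2 and the copies was not tested. The paper also describes gaps of GRCm39 in the chromosome 4 KZFP cluster. It says that reads from these gaps can pile up falsely on similar sequence that the assembly does hold. Copies in the gaps could not be searched, and the part of such reads in these peaks was not tested. The other 4 KZFPs with a peak at the common Tlk2 site (Zfp_MB018, Zfp600, Zfp980 and Zfp_MB025) had none in the copies.

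**Figure D5:**
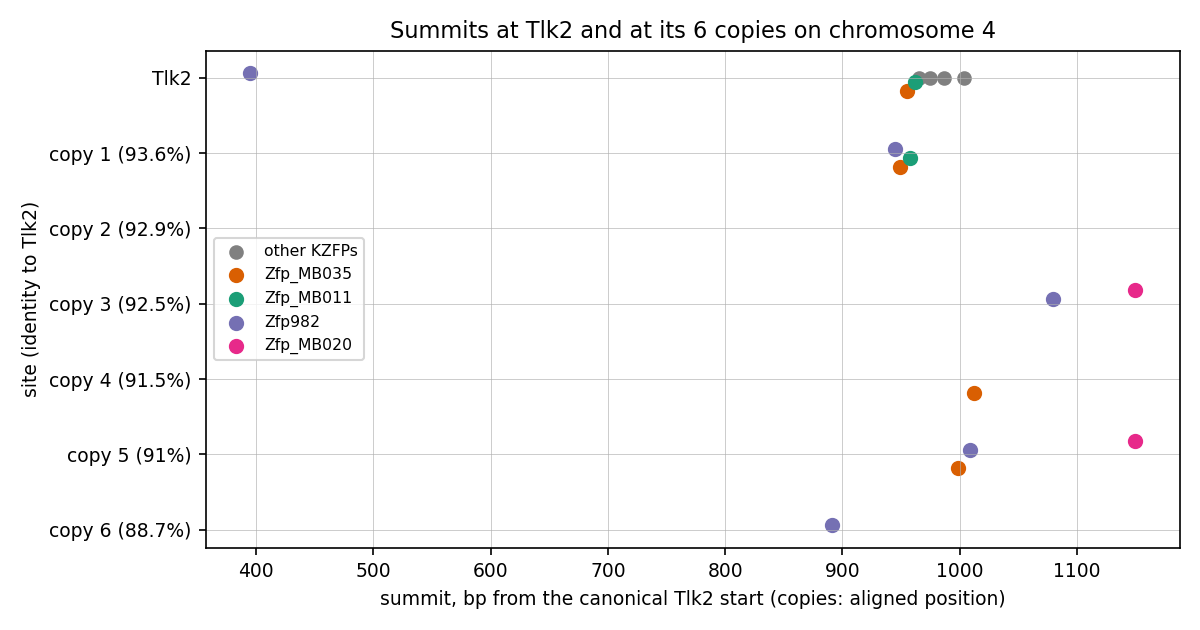
Summits at Tlk2 (top row) and in its 6 copies on chromosome 4 (rows ordered by identity to Tlk2), placed by alignment as the distance in bp from the canonical Tlk2 start (x axis). Each point is 1 summit, coloured by KZFP, with the KZFPs that have no peak in the copies in grey. The summits of Zfp_MB035 and Zfp_MB011 in the copy with 93.6% identity lie within 6 bp of those at Tlk2, and the copy with 92.9% identity has none.

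For Selenot and Hmgxb4 the genes with the most similar set of lists were other members, and for Ino80d and Ptov1 they were genes outside the 6. By the Jaccard index, the lists shared by 2 genes as a fraction of the lists of either, Tlk2 and Ino80d shared 5 of 7 (0.714), Tlk2 and Selenot 6 of 9 (0.667) and Hmgxb4 and Ino80d 5 of 8 (0.625). Tlk2 and Hmgxb4 also shared 6 of 9 (0.667), and Tlk2 and Kdm3b, a gene outside the 6, shared 5 of 7 (0.714). Kdm3b, which encodes a histone demethylase, had the same 5 lists as Ino80d (index 1.00). Its summits of Zfp_MB025, Zfp_MB011, Zfp_MB035 and Zfp980 lay 178 to 225 bp past a start and that of Zfp982 2 bp before one, with fold enrichments from 5.98 to 18.0. Actg1, the gene of cytoplasmic gamma actin, had 4 of the 5 lists (0.800), with fold enrichments from 9.63 to 36.7. For Ptov1 the index was 1.00 with Ccny, a cyclin gene, and Cdc42bpa, a kinase gene. As at Ptov1, Zfp988 and Zfp_MB001 coincided there, 5 bp apart at both genes (233 and 228 bp before a start of Ccny, 478 and 483 bp past one of Cdc42bpa). Rhpn2, with 2 lists, could not reach the minimum of 3 shared lists and was not compared. The index is a description over 42 lists, and the smaller sets reach high values easily. It uses the same peaks by which the members were chosen, so likeness between members follows in part from that choice.

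Of the 51 relatives and partners of the 6 genes that were listed, 15 (29.4%) had a peak at their own starts, against 22.9% of all protein-coding genes. Of the 14 other subunits and partners of the INO80 complex, 2 had one, Ruvbl2 (10.9) and Uchl5 (34.4, fold enrichments), both from Zfp_MB016. Of 23 other selenoprotein genes, 7 had one, and none had 3 lists. Selenok and Selenof had a peak of Zfp982, Selenoh, Selenoi, Selenov and Gpx4 one of Zfp_MB016, and Gpx1 one each of Zfp986 and Zfp_MB026. Tlk1, the paralog of Tlk2, and the chaperone genes Asf1a and Asf1b had none. Of Rhpn1, Rhoa, Rhob and Rhoc, 3 had a peak, with 3 lists at Rhoc. Bptf was the only one of 4 other genes listed with Hmgxb4, and Med25 and Flot1 were 2 of the 3 listed with Ptov1, each with a peak of Zfp982 alone.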

How the data were processed

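ChIP-seq peak lists of 42 KZFPs, 1 library each, were analysed; of the 54 samples in the labels, the empty vector controls, mixed inputs and HGTC8 libraries were not used here. The authors aligned reads to GRCm39 with BWA, kept 1 of equally good positions at random, removed duplicates, and called peaks with MACS2 2.2.7.1 against the mixed input of the batch. The submitters' processing notes also name SAMtools 1.19 and deepTools 3.5.4. Peaks touching any empty vector peak were removed, and limits on q (0.01) and fold enrichment (5 or 10) were applied. The deposited files hold a fold enrichment, which is a ratio over input, with the authors' -log10 p and -log10 q and a display score. The score and -log10 p entered no result.

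Chromosome accessions were translated by their standard order. The 37 peaks on scaffolds were left out. Starts were those of all transcripts in GENCODE vM39. Genes named are the 6 members, genes with a start within 2000 bp of their summits, and at most 2 others per member with the most similar lists (Jaccard index, 3 or more lists shared, starts over 10 kb away). Of these, 1 gene is not reported here. Copies were sought with blastn 2.17.0. Permutation tests (scipy 1.17.1, 100000 resamples) compared 16 lists with 26 (the result on the 6 genes themselves is given without its p) and were tested on simulated data. Alternatives were the distance, the starts used, fold and q limits, distinct arrays, and each batch left out. The lists hold no read numbers. The study reports the number of reads of each library, which differs between KZFPs, and these numbers entered no result here. The members and gene lists were chosen with earlier results of these data known.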

Additional observations from a re-analysis of the deposited data

How the results depend on the processing

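The number of peaks at the 6 genes (33) and of lists that had one (13) stayed within 1.5 times under most alternatives. They fell to 15 peaks in 7 lists when each list was limited to folds of 15 or more, and to 16 peaks in 6 lists without batch 4, which holds 20 of the 42 libraries. With all lists limited to folds of 10 or more, the pairs with coincident summits went from 72 of 91 (79.1%) to 25 of 38 (65.8%), since Zfp_MB011, Zfp980 and Zfp600 drop out. Selenot then had 5 lists, Tlk2 4, Ino80d 3 and Hmgxb4 6. Within 500 bp of a start Rhpn2 had none and Ptov1 1, and with canonical starts only Ptov1 had 1. Without batch 4 Selenot had 2 lists. Without Zfp_MB035, chosen after the data were seen, 28 peaks were left, and 29 without Zfp982.

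The difference in genes per list between batches without and with an empty vector control was -0.159 and turned to 0.0824 at folds of 15 or more, both given without a test. That in the share of summits at promoters, 2.60 percentage points, turned to -11.4 at folds of 10 or more (adjusted p = 0.109, permutation test), to -4.49 at 15 or more and to -2.14 with 1 value per array. The latter did not pass under any of these alternatives. The cause was not tested. No paired analysis was possible because each KZFP has 1 library.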
